A study of Mus musculus with 6 samples.

Results

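The genes described here encode the semaphorins, netrins, Slits and ephrins, which are guidance ligands, and their plexin, neuropilin, Robo, Unc5 and Eph receptors, in the mesonephros of male mouse embryos. Members were all genes of the deposited data whose symbols carry the stem of 1 of these families (semaphorin classes 3 to 7, plexins A to D, Nrp1 and Nrp2, Slit1 to Slit3, Robo1 to Robo3, Ntn1 to Ntn5, Unc5a to Unc5d, and the Eph receptors and ephrins of types A and B). The rule took 61 of 14366 genes, 32 for ligands and 29 for receptors, and used no expression value. RNA-seq had been made from mesonephroi, with the tubule region included, at embryonic day 16.5, when this tissue holds the Wolffian duct and the mesenchyme around it and is forming the epididymis. The Gata2cKO group had 3 samples of the genotype Osr2Cre+;Gata2-flox/flox, and the control group had 3 samples of the genotype Osr2Cre+;Gata2-flox/+. All 6 samples thus carried the recombinase, and controls kept 1 unfloxed allele of Gata2, a zinc-finger transcription factor gene. Osr2-Cre acts in cells that express Osr2, which are mesenchymal here, so epithelium, vessels, nerves and blood cells in the same dissection would keep Gata2. Whether samples came from separate embryos, litters or pools is not given, so p-values measure only the spread between these samples.

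Guidance ligands were found through their action on growing axons, where they attract or repel the tip of the axon through receptors on its surface. Secreted class 3 semaphorins bind neuropilins, which signal through plexins. Most other semaphorins are membrane proteins that bind plexins directly. Slits bind Robo receptors, netrins bind Dcc, Neo1 and Unc5 receptors, and ephrins, which are tethered to the cell surface, signal to Eph receptor tyrosine kinases on the neighbouring cell and can signal back into their own cell. The same proteins guide blood and lymphatic vessels, set borders between cell groups, and shape branching epithelia such as the ureteric bud of the kidney, where Slit2 and Robo2 restrict budding in the mouse.

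Levels were deposited per gene and library in a unit that fits TPM (a transcript level corrected for the length of the gene and the size of the library), so levels of different genes can be compared, while read depth is unknown. The libraries listed 12122 to 12301 genes at 1 TPM or more. Control replicate 1 stood apart: the second principal component (27.4% of the variance) placed it at 20.1, with the other controls at -12.7 and -17.1, and its mitochondrial share was 21.9% against 13.2% to 16.3% in the other 5 libraries. Results are therefore also given without it. Gata2 was at 431, 530 and 416 TPM in Gata2cKO replicates 1 to 3, against 384, 464 and 546.5 TPM in control replicates 1 to 3. The groups overlapped. A level summed over the whole gene cannot report on loss of the floxed exons, so the directions below rest on the labels. Markers of the mesonephros were present: Wt1 averaged 57.9 ± 2.51 TPM in Gata2cKO and 58.5 ± 2.57 TPM in controls, and Pax2 of the duct epithelium 2.38 ± 0.419 and 2.12 ± 0.736 TPM (SD, n = 3 each).

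Most guidance ligands and receptors were transcribed in this tissue, over a wide range of levels. Of the 61 members, 50 were at 1 TPM or more in every library and 9 were under 1 TPM in every library. The highest was Plxnb2, a plexin that binds class 4 semaphorins, at 268, 303 and 253 TPM in Gata2cKO replicates 1 to 3 and 224, 239 and 253 TPM in control replicates 1 to 3. Efnb1, a transmembrane ephrin, followed at 223, 279 and 237 TPM in Gata2cKO and 201, 249 and 279 TPM in controls, and Efnb3 came next with means of 140.6 and 139 TPM. Control and Gata2cKO values of Efnb1 overlapped, and its mean lay above that of Efnb3 by more than the spread of either. The least abundant were Epha6 (0.0204 and 0.0294 TPM in Gata2cKO and control means), Unc5d and Slit1.

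**Figure D1:**
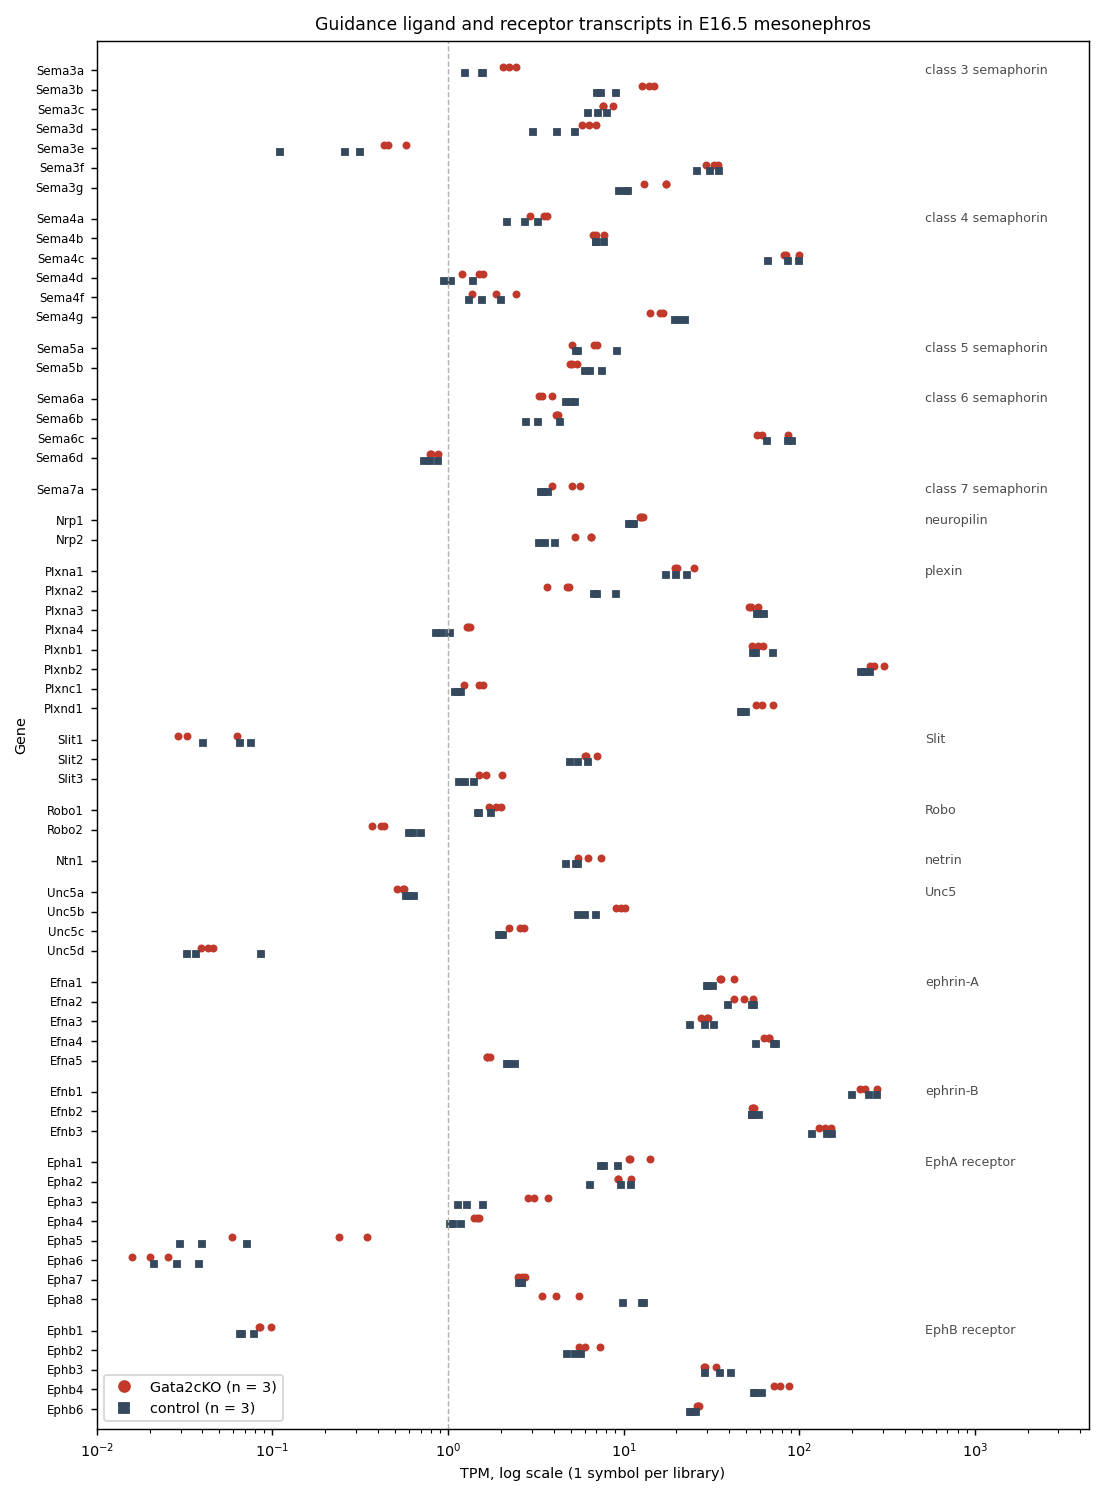
TPM of the 61 guidance genes in each library on a log axis, grouped by family, with Gata2cKO libraries as red circles and control libraries as dark squares (n = 3 each). The dashed line marks 1 TPM, the level used to choose genes for testing, and the plot shows Plxnb2, Efnb1 and Efnb3 above 100 TPM at the top of the range and 9 members entirely below 1 TPM.

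A difference between Gata2cKO and control was tested in the 52 members for which 3 or more of the 6 libraries reached 1 TPM. The test was limma-trend on log2(TPM + 1), which understates the change of low genes, with Benjamini-Hochberg adjusted p-values over 12300 genes and a threshold of 0.05. Of the 52 tested, 6 rose in Gata2cKO (Epha3, Sema3b, Unc5b, Nrp2, Sema3g and Ephb4) and 4 fell (Epha8, Plxna2, Sema6a and Sema4g), which is 19.2%, beside 7.47% of all tested genes. By direction, all tested genes gave 5.73% higher and 1.74% lower, or 705 and 214 genes. That split depended on scaling, with 487 higher and 400 lower under median-of-ratios scaling, 619 and 340 under upper-quartile scaling, and 432 and 282 once mitochondrial genes were left out of the total, while 6 or 7 members were higher and 4 lower under each. Ligands gave 2 higher and 2 lower of 29 tested, and receptors 4 higher and 2 lower of 23 tested. All 10 called genes had 1 TPM or more in every library. The median log2 fold change was 0.15 over tested members and 0.05 over all tested genes. The 3 Gata2cKO values lay wholly above or below the 3 control values for 20 and 6 tested members, 50.0% in all, beside 33.9% of all tested genes. Over all tested genes, 23.4% lay wholly above and 10.5% wholly below. The 6 of 52 members that lay below are near the latter share, so that count is no result about the members. All 10 calls held without control replicate 1, where 12.5% of all genes were called. With 1 of the other libraries left out the counts were far lower: 3 higher and 1 lower without control replicate 2 (2.11% of all genes called), 2 and 1 without control replicate 3 (2.23%), 2 and 1 without Gata2cKO replicate 1 (0.943%), 1 and 1 without Gata2cKO replicate 2 (1.87%), and 1 and 1 without Gata2cKO replicate 3 (1.67%). Epha8 was the 1 member called in each of the 6 removals. Epha3 was called in 5 of them, Sema3b in 4, and Nrp2 and Sema3g in 2 each. Unc5b, Plxna2, Ephb4, Sema6a and Sema4g were called in only 1, that without control replicate 1. Under the other settings tried, the share of all tested genes called was 7.4% and 7.48% with pseudocounts of 0.1 and 0.5, 6.1% with no filter on low values, 7.41% with 1 TPM required in all 6 libraries, 7.21% with median-of-ratios scaling, 7.8% with upper-quartile scaling, 5.81% without mitochondrial genes in the total, 7.59% with no variance trend and 6.29% with the replicate block.

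**Figure D2:**
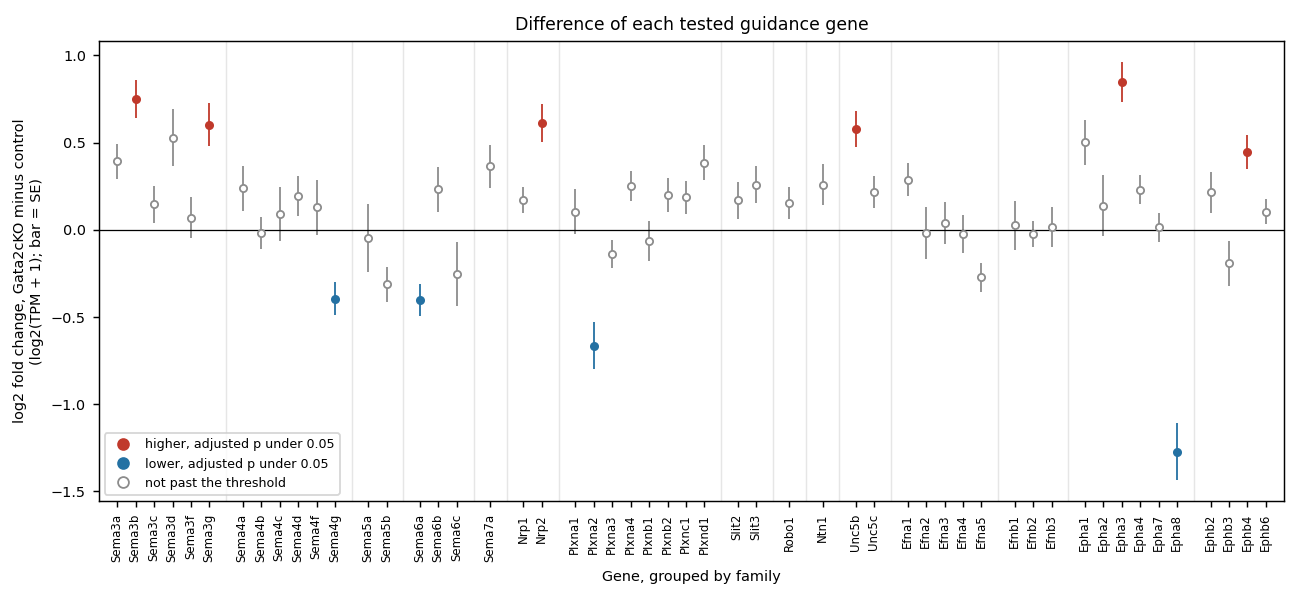
Log2 fold change of Gata2cKO over control, from log2(TPM + 1), for the 52 tested guidance genes grouped by family, with standard errors as bars. Filled red points mark the 6 genes that rose and filled blue points the 4 that fell, with Epha8 lowest at -1.27 and Epha3 highest at 0.85.

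The class 3 semaphorins, the secreted ligands of neuropilins, had positive log2 fold changes in all 6 tested members, and 2 of them rose. Without control replicate 1, Sema3f alone turned negative (log2 fold change -0.04). Of the 52 tested guidance members 37 had positive log2 fold changes, and the median over all tested genes was 0.05. Sema3b (ENSMUSG00000057969, chromosome 9, 107597674 to 107609229, GRCm38), a secreted semaphorin known as a candidate tumour suppressor, was at 12.7, 14.8 and 14.01 TPM in Gata2cKO replicates 1 to 3 and 7.04, 7.48 and 9.04 TPM in control replicates 1 to 3. Every Gata2cKO library was above every control. Sema3b rose 1.76-fold (log2 fold change 0.75, SE 0.11, limma adjusted p = 0.0132; 0.0119 without control replicate 1). Sema3g (ENSMUSG00000021904, chromosome 14, 31217860 to 31230352), a semaphorin made by endothelium that binds Nrp2, was at 13.05, 17.55 and 17.36 TPM in Gata2cKO and 9.37, 10.6 and 10.4 TPM in controls. The groups did not overlap, with Gata2cKO replicate 1 closest to the controls, and Sema3g rose 1.58-fold (log2 fold change 0.60, SE 0.12, limma adjusted p = 0.0326). Sema3f, the most abundant member of the class and a ligand of Nrp2, was at 29.5, 34.5 and 32.6 TPM in Gata2cKO and 26.3, 31.2 and 34.9 TPM in controls, which overlapped (limma adjusted p = 0.742).

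Other class 3 members lay in between. Sema3a, the first semaphorin found to collapse growth cones, was at 2.24 ± 0.194 TPM in Gata2cKO and 1.47 ± 0.182 TPM in controls (SD, n = 3 each). Its groups did not overlap, but it narrowly failed the threshold and was not called (log2 fold change 0.39, limma adjusted p = 0.0536). Sema3d had 6.38 ± 0.580 and 4.19 ± 1.14 TPM (limma adjusted p = 0.0863) and Sema3c 7.99 ± 0.584 and 7.15 ± 0.897 TPM (limma adjusted p = 0.418). Sema3e, a ligand that binds Plxnd1 without a neuropilin, was under 1 TPM in every library, at 0.487 ± 0.0772 TPM in Gata2cKO and 0.228 ± 0.106 TPM in controls, and was not tested. The authors' deposited table, which holds a test of its own on all 14366 genes, gives adjusted p-values of 0.000393 for Sema3a, 0.0138 for Sema3d and 0.00734 for Sema3e, each higher in Gata2cKO. In the authors' deposited table, 5 of the 7 class 3 members are called higher and 0 lower, beside 6.69% of all genes called higher. Summed over the 7 members, the level was 73.2, 82.8 and 81.4 TPM in Gata2cKO and 55.1, 63.7 and 66.5 TPM in controls. Sema3f made up 40.7% of that sum in Gata2cKO and 49.7% in controls on average.

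The membrane-bound semaphorins of classes 4 to 6 did not rise in any tested member, and 1 member each of classes 4 and 6 fell. Sema6a (ENSMUSG00000019647, chromosome 18, 47235598 to 47368870), a transmembrane ligand of Plxna2 and Plxna4, was at 3.44, 3.92 and 3.30 TPM in Gata2cKO and 5.29, 4.73 and 5.04 TPM in controls. It fell in Gata2cKO without overlap of the groups (log2 fold change -0.40, SE 0.092, limma adjusted p = 0.0414). Sema4g (ENSMUSG00000025207, chromosome 19, 44989101 to 45003397), which binds Plxnb2, was at 16.1, 16.7 and 14.2 TPM in Gata2cKO and 20.6, 19.7 and 22.5 TPM in controls, again without overlap, and fell (log2 fold change -0.39, SE 0.094, limma adjusted p = 0.0464). Both calls were close to the threshold and were lost when low genes were not filtered (adjusted p = 0.0504 for Sema6a and 0.0564 for Sema4g). They were also lost with the replicate block, and each held in only 1 of the 6 removals of a library. Sema5b, a semaphorin with thrombospondin repeats, had 5.16 ± 0.267 TPM in Gata2cKO and 6.67 ± 0.792 TPM in controls (limma adjusted p = 0.0976). The authors' deposited table calls Sema5b lower (adjusted p = 0.00217). The abundant members overlapped between the groups: Sema4c, another ligand of Plxnb2, had 88.6 ± 9.80 TPM in Gata2cKO and 83.9 ± 16.6 TPM in controls, and Sema6c had 68.4 ± 15.7 and 81.3 ± 14.0 TPM (SD, n = 3 each). Sema7a, anchored to the membrane by a lipid and a ligand of Plxnc1 and integrins, had 4.87 ± 0.880 and 3.53 ± 0.173 TPM (limma adjusted p = 0.110).

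Among the receptors of semaphorins, Nrp2 rose and Plxna2 fell. Nrp2 (ENSMUSG00000025969, chromosome 1, 62703285 to 62818695), a co-receptor for class 3 semaphorins and for the lymphatic growth factor VEGF-C, was at 5.27, 6.55 and 6.495 TPM in Gata2cKO and 3.31, 4.07 and 3.55 TPM in controls. All 3 Gata2cKO libraries were above the controls, a 1.68-fold rise (log2 fold change 0.61, SE 0.11, limma adjusted p = 0.0225). Nrp1, the more abundant neuropilin, was at 12.4, 12.6 and 12.9 TPM in Gata2cKO and 11.1, 11.47 and 10.7 TPM in controls. It too showed no overlap, but its difference was smaller and did not pass (log2 fold change 0.17, limma adjusted p = 0.191). Nrp2 made up 29.8%, 34.2% and 33.4% of neuropilin TPM in Gata2cKO and 22.9%, 26.2% and 24.9% in controls.

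Plxna2 (ENSMUSG00000026640, chromosome 1, 194618218 to 194816869), which receives Sema6a and, with neuropilins, class 3 semaphorins, was at 4.75, 4.87 and 3.68 TPM in Gata2cKO and 9.01, 6.80 and 7.02 TPM in controls. Every Gata2cKO library was below every control, and control replicate 1 was the highest of the 6. The mean was 1.72-fold lower in Gata2cKO (log2 fold change -0.66, SE 0.13, limma adjusted p = 0.0311), and without control replicate 1 the log2 fold change was -0.55 (limma adjusted p = 0.0291). The other 7 plexins did not pass. Plxnd1, an endothelial plexin and the receptor of Sema3e, came closest at 56.5, 70.9 and 61.3 TPM in Gata2cKO and 47.2, 46.4 and 49.5 TPM in controls (log2 fold change 0.39, limma adjusted p = 0.0557; 0.0401 with upper-quartile scaling). The A plexins differed among themselves: Plxna4, under or near 1 TPM in controls, had 1.31 ± 0.0328 TPM in Gata2cKO and 0.939 ± 0.0876 TPM in controls (limma adjusted p = 0.111), Plxna3 54.5 ± 3.37 and 60.2 ± 2.96 TPM, and Plxna1 21.7 ± 3.00 and 20.09 ± 2.73 TPM. Plxna4 passed the filter on low values through its Gata2cKO libraries, since only 1 control reached 1 TPM. Summed plexin TPM was 446 to 527 in Gata2cKO and 426 to 452 in controls, of which Plxnb2 made up 57.3% and 54.5% on average.

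**Figure D3:**
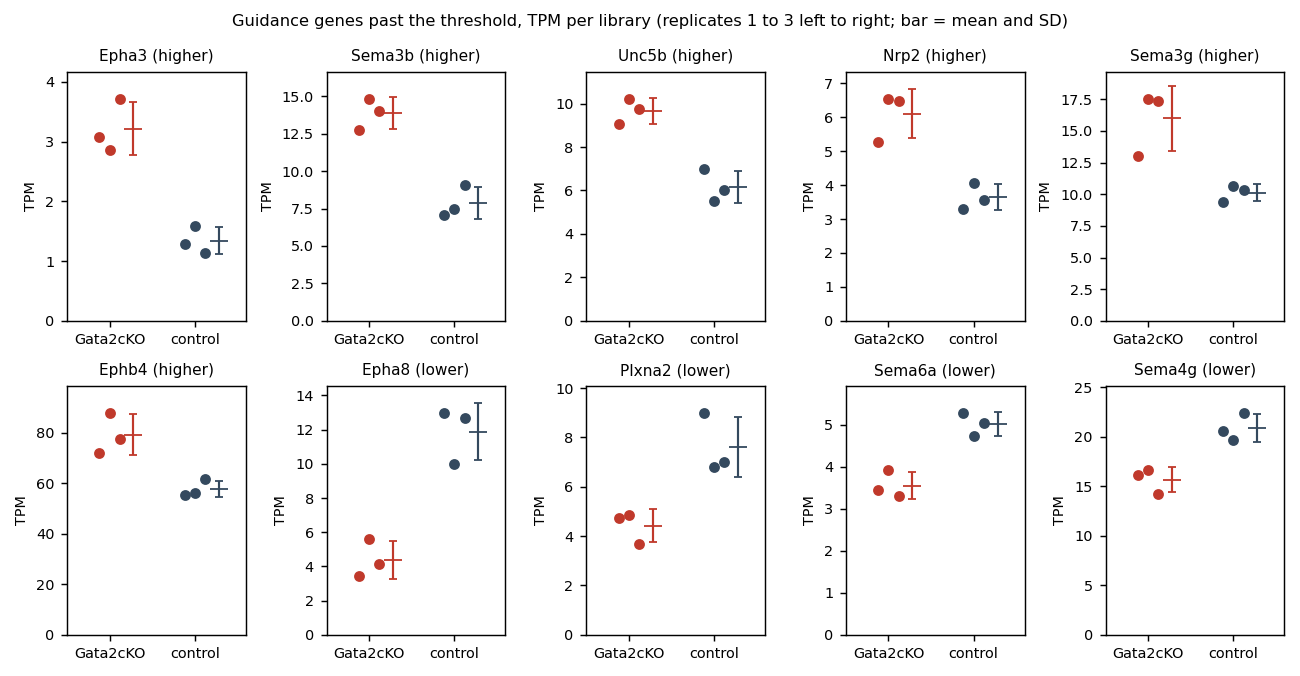
TPM per library of the 10 guidance genes past the threshold, Gata2cKO at the left of each panel and control at the right (n = 3 each, replicates in order), with the mean and SD as a bar and axes that start at 0. The 2 groups do not overlap in any panel, and the gap is widest in proportion for Epha8 and Epha3.

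No Slit or Robo gene was called. Slit2, the most abundant, was at 6.09, 6.02 and 7.04 TPM in Gata2cKO and 4.98, 6.25 and 5.51 TPM in controls, with overlap (limma adjusted p = 0.343). Slit3 was at 1.65, 2.03 and 1.51 TPM in Gata2cKO and 1.41, 1.25 and 1.16 TPM in controls, without overlap (log2 fold change 0.26, limma adjusted p = 0.159). In the authors' deposited table Slit3 is called higher (adjusted p = 0.0188). Robo1 was at 1.89, 1.997 and 1.72 TPM in Gata2cKO and 1.77, 1.5 and 1.48 TPM in controls, which overlapped. Robo2, the Slit receptor that acts in kidney budding, was under 1 TPM in every library at 0.430, 0.418 and 0.370 TPM in Gata2cKO and 0.701, 0.634 and 0.5996 TPM in controls. These values did not overlap. Robo2 was not in the main test, and with no filter on low values it fell (log2 fold change -0.23, limma adjusted p = 0.0402). The authors' deposited table gives it a log2 fold change of -0.73 (adjusted p = 1.94e-06).

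In the netrin system, the receptor gene Unc5b rose. Unc5b (ENSMUSG00000020099, chromosome 10, 60762593 to 60831581), a repulsive netrin receptor also known from endothelium, was at 9.04, 10.2 and 9.74 TPM in Gata2cKO and 6.98, 5.51 and 6.003 TPM in controls. Gata2cKO libraries were all above controls, and the rise was 1.57-fold (log2 fold change 0.58, SE 0.10, limma adjusted p = 0.0212). Without control replicate 1, the highest control, the limma adjusted p was 0.00830. That was the only 1 of the 6 removals of a library that kept the call (highest limma adjusted p = 0.0830, without Gata2cKO replicate 3). Unc5c was at 2.49 ± 0.246 TPM in Gata2cKO and 1.998 ± 0.0544 TPM in controls (SD, n = 3 each), without overlap (limma adjusted p = 0.1698). Unc5a and Unc5d stayed under 1 TPM in all libraries. Ntn1, the single netrin gene here, was at 5.48, 7.46 and 6.31 TPM in Gata2cKO and 4.68, 5.37 and 5.47 TPM in controls. Gata2cKO replicate 1 lay just above the highest control, and the difference did not pass (log2 fold change 0.26, limma adjusted p = 0.206). Of its attractive receptors, Dcc was at 0.0154 TPM in Gata2cKO and 0.0169 TPM in controls, and Neo1 at 20.4 ± 1.09 and 16.2 ± 0.405 TPM (SD, n = 3 each; log2 fold change 0.32, limma adjusted p = 0.0526).

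The Eph receptors held both the largest fall and the largest rise among the tested members. Epha8 (ENSMUSG00000028661, chromosome 4, 136929419 to 136956816), a receptor of A ephrins first studied in the midbrain, was at 3.42, 5.58 and 4.11 TPM in Gata2cKO and 13.0, 9.98 and 12.7 TPM in controls. The highest Gata2cKO library was well below the lowest control, and the mean was 2.72-fold lower in Gata2cKO (log2 fold change -1.27, SE 0.16, limma adjusted p = 0.0108). In the 6 removals of a library the log2 fold change of Epha8 lay between -1.43 and -1.14, with a highest adjusted p of 0.0469 (without Gata2cKO replicate 3). Epha3 (ENSMUSG00000052504, chromosome 16, 63543534 to 63864175), a receptor with high affinity for ephrin-A5, was at 3.07, 2.86 and 3.72 TPM in Gata2cKO and 1.29, 1.59 and 1.14 TPM in controls. Its Gata2cKO values were all higher, and Epha3 rose 2.40-fold (log2 fold change 0.85, SE 0.12, limma adjusted p = 0.0116). Removing Gata2cKO replicate 1 took Epha3 just past the threshold (limma adjusted p = 0.0517), and the call was kept in the other 5 removals.

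The EphA receptors as a sum were level between the groups while their make-up differed. Summed EphA TPM was 34.3, 35.0 and 32.0 in Gata2cKO and 32.1, 34.0 and 36.4 in controls. Epha8 made up 9.98%, 15.96% and 12.9% of that sum in Gata2cKO and 40.5%, 29.4% and 34.8% in controls, and was thus the most abundant EphA receptor in control replicates 1 and 3. Epha3 made up 8.96%, 8.16% and 11.6% in Gata2cKO and 4.03%, 4.67% and 3.14% in controls. Epha1, a receptor of epithelia, was at 14.2, 10.96 and 10.8 TPM in Gata2cKO and 7.42, 7.73 and 9.25 TPM in controls, without overlap (log2 fold change 0.50, limma adjusted p = 0.0574). The authors' deposited table calls Epha1 higher (adjusted p = 0.0431). Epha2 and Epha7 overlapped between the groups, at 9.86 ± 1.05 and 2.64 ± 0.1196 TPM in Gata2cKO and 9.03 ± 2.32 and 2.61 ± 0.0561 TPM in controls (SD, n = 3 each). Epha5 was listed under 1 TPM in every library, with 0.238, 0.346 and 0.0592 TPM in Gata2cKO and 0.0721, 0.0298 and 0.0398 TPM in controls, so that Gata2cKO replicate 3 lay within the controls. The authors' deposited table gives Epha5 a log2 fold change of 2.11 (adjusted p = 0.0408).

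**Figure D4:**
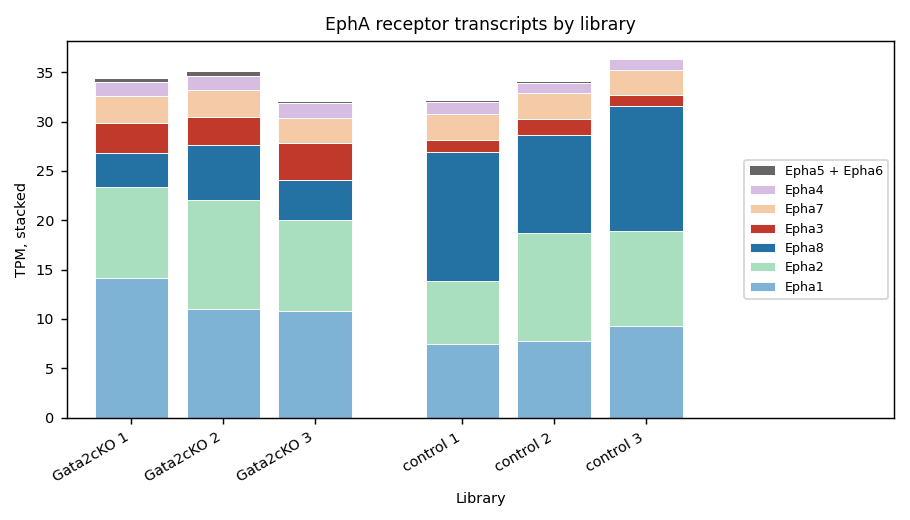
Stacked TPM of the EphA receptor genes in each library, Gata2cKO replicates at the left and controls at the right, on an axis that starts at 0. The total heights are alike (32.0 to 35.0 TPM in Gata2cKO, 32.1 to 36.4 TPM in controls), while the Epha8 segment is smaller and the Epha3 segment larger in each Gata2cKO library than in any control.

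Among EphB receptors, Ephb4 rose. Ephb4 (ENSMUSG00000029710, chromosome 5, 137350109 to 137378669), the venous receptor of ephrin-B2, was the most abundant Eph receptor at 72.1, 88.0 and 77.4 TPM in Gata2cKO and 55.4, 56.3 and 61.5 TPM in controls. The groups did not overlap, and Ephb4 rose 1.37-fold (log2 fold change 0.45, SE 0.096, limma adjusted p = 0.0364). Ephb4 kept its call in only 1 of the 6 removals of a library, that of control replicate 1 (limma adjusted p = 0.0383). Its partner Efnb2, an arterial ephrin, was at 55.0, 55.0 and 53.8 TPM in Gata2cKO and 53.8, 58.9 and 54.2 TPM in controls. These values overlapped (log2 fold change -0.03, limma adjusted p = 0.856). Ephb3 was at 30.4 ± 2.60 TPM in Gata2cKO and 35.2 ± 5.89 TPM in controls, and Ephb6, which lacks kinase activity, at 26.5 ± 0.341 and 24.6 ± 1.008 TPM (SD, n = 3 each). Neither passed.

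The 8 ephrins were all tested, and none was called. Efna5 had the smallest p, at 1.68, 1.74 and 1.68 TPM in Gata2cKO and 2.16, 2.23 and 2.40 TPM in controls, without overlap (log2 fold change -0.27, limma adjusted p = 0.0845). The authors' deposited table calls Efna5 lower (log2 fold change -0.47, adjusted p = 0.000147). Efna1 was at 35.5, 42.5 and 35.7 TPM in Gata2cKO and 29.9, 30.2 and 32.5 TPM in controls (log2 fold change 0.29, limma adjusted p = 0.105). The other 6 ephrins overlapped between the groups and had log2 fold changes between -0.03 and 0.04, with levels from 28.6 TPM (Efna3 in controls) to 246 TPM (Efnb1 in Gata2cKO). Ephrin TPM summed to 578 to 681 in Gata2cKO and 526 to 679 in controls.

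Over all 61 members, the authors' deposited table calls 14 higher and 7 lower in Gata2cKO, 34.4%, beside 13.3% of all its genes (6.69% higher and 6.58% lower). The 10 genes called by limma are among these 21, in the same direction. Another 8 were tested here without passing (Sema3a, Sema3d, Plxna4, Plxnd1, Slit3 and Epha1 higher; Sema5b and Efna5 lower), and 3 were not tested for low levels (Sema3e and Epha5 higher; Robo2 lower). Both tests use the same 6 libraries and are not independent.

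**Figure D5:**
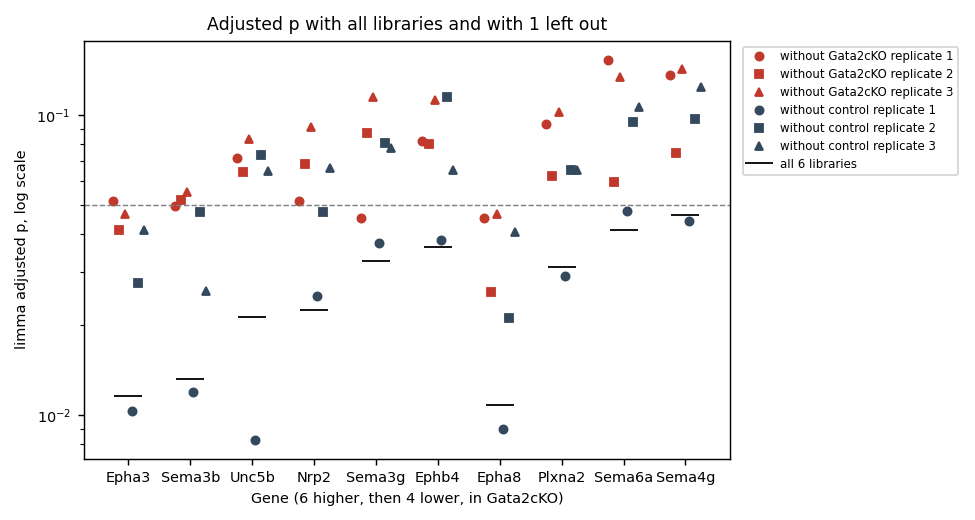
Limma adjusted p on a log axis for the 10 guidance genes past the threshold, with all 6 libraries (black bars) and with 1 library left out (red for Gata2cKO, dark for control). Removal of control replicate 1 keeps all 10 below the dashed threshold of 0.05, while Epha8 alone stays below it in each of the 6 removals.

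The closest neighbours among the members were Efna3 and Efna4, 10.4 kb apart on chromosome 3, with Efna1 32.8 kb from Efna3, and none of these was called. Sema3b and Sema3f lie 72.3 kb apart on chromosome 9, where Sema3b rose and Sema3f overlapped between groups. Epha8 and Ephb2 lie 93.4 kb apart on chromosome 4. Ephb2 was at 6.31 ± 0.949 TPM in Gata2cKO and 5.27 ± 0.472 TPM in controls (SD, n = 3 each; limma adjusted p = 0.278), while Epha8 fell. Sema3d, Sema3a and Sema3e are, in this order, consecutive members on chromosome 5, with gaps of 537 and 423 kb. Of these, Sema3a and Sema3d did not pass the limma test and Sema3e was not tested, while the authors' deposited table calls all 3 higher. Strandedness of the libraries is not given, so reads of a gene and of one that overlaps it cannot be told apart. Of the 10 called genes, 1 shares exonic bases with another annotated gene, Ephb4 with Zan over 0.711% of its exons.

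Because the mutated gene encodes a GATA factor, the 250 bases before the RefSeq start of each gene were searched for the core GATA motif, spelled AGATAA or AGATAG, or else TGATAA or TGATAG, on either strand (RefSeq, GRCm38.p6). Entries were found for 52 of the 61 members. Of the 10 called genes, 8 had one, and the motif was in 3 of these, Epha3 and Unc5b, which rose, and Plxna2, which fell. It was in 11.8% of the 68 windows of members and in 26.5% of the 32851 windows of all genes. A match is a string of letters and not a binding site. The 3 stretches are shown because they carry these matches, with the motif in capitals, read 5′ to 3′ on the strand of the gene.
Epha3 (chr16:63864176-63864223, minus strand, intergenic, motif 8 bases before the start, read here as its complement): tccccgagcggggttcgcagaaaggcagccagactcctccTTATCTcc
Unc5b (chr10:60831693-60831778, minus strand, intergenic, motif 157 bases before the start): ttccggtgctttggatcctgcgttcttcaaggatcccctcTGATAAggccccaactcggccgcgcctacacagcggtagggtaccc
Plxna2 (chr1:194619763-194619792, plus strand, within an exon of another Plxna2 transcript in GENCODE, motif 54 bases before the RefSeq start): acgcggcctctaTGATAAtgagctgagcgg

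Other genes of the guidance pathways were read from 3 lists of 88 genes, whose counts stand beside 5.73% higher and 1.74% lower over all tested genes. Of 14 tested co-receptors and partner receptors 3 rose and 0 fell (21.4% called), with a median log2 fold change of 0.17. They were L1cam, an adhesion molecule that partners Nrp1, at 3.82 ± 0.0928 TPM in Gata2cKO and 1.66 ± 0.390 TPM in controls, Cdon, a co-receptor of hedgehog ligands and a partner of Neo1, at 38.5 ± 0.716 and 26.4 ± 1.02 TPM, and Met, the hepatocyte growth factor receptor and a partner of B plexins, at 2.52 ± 0.1002 and 1.47 ± 0.126 TPM (SD, n = 3 each), with limma adjusted p-values of 0.0114, 0.0119 and 0.0184. Ptk7, the most abundant, had 83.1 ± 4.67 TPM in Gata2cKO and 83.3 ± 11.7 TPM in controls. Of 12 tested other ligands and ligand-like proteins 2 rose and 1 fell (25.0% called), with a median of -0.14. The chemokine gene Cxcl12, the most abundant, rose to 416 ± 18.7 TPM in Gata2cKO, against 298 ± 12.6 TPM in controls, and Slitrk6, a membrane protein that is named after Slits and is no Slit ligand, rose to 102 ± 15.7 TPM, against 48.5 ± 7.97 TPM (limma adjusted p = 0.0178 and 0.0121). Artn, a ligand that guides sympathetic nerves, fell to 36.3 ± 4.64 TPM in Gata2cKO, against 69.3 ± 10.1 TPM in controls (limma adjusted p = 0.0131). Of 43 tested intracellular effectors 3 rose and 0 fell, with a median of -0.01. That is 6.98% called, near the 7.47% over all tested genes, so the count is no result about the effectors. The 3 were the semaphorin mediators Dpysl3 (17.1 ± 1.52 and 10.97 ± 0.831 TPM) and Dpysl5 (4.20 ± 0.729 and 2.41 ± 0.0656 TPM), and the kinase gene Pak2 (16.5 ± 0.407 and 12.9 ± 0.534 TPM in Gata2cKO and controls; limma adjusted p = 0.0178, 0.0276 and 0.0435). Cfl1, the actin-severing protein and the most abundant, had 1641 ± 88.4 and 1700 ± 274 TPM.

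Markers of other cell types moved between the groups too, and their part in the results above was not tested. In bulk tissue, fewer cells of a type and less RNA per cell cannot be told apart. The counts of each marker list stand beside 7.47% called over all tested genes, 5.73% higher and 1.74% lower. Of 15 endothelial markers, all tested, 3 rose and 0 fell (20.0% called; Esam, Emcn and Pecam1, limma adjusted p = 0.0112, 0.0156 and 0.0328). Their summed level ran from 674 to 801 TPM in Gata2cKO and from 512 to 676 TPM in controls. Sox18, the most abundant, had 205 ± 15.1 and 165 ± 21.8 TPM, and Kdr 27.2 ± 2.12 and 27.2 ± 2.36 TPM (SD, n = 3 each). Of the 15 markers 12 were not called, and Kdr, Cldn5, Egfl7, Plvap, Ramp2, Eng and Flt1 overlapped between the groups. Endothelium is known to express Nrp2, Unc5b, Ephb4, Sema3g and Plxnd1, and also the arterial ephrin gene Efnb2. Of these, Plxnd1 and Efnb2 were not called (limma adjusted p = 0.0557 and 0.856). Of 3 tested lymphatic markers 1 rose, Lyve1, with a list sum of 22.8 to 24.8 TPM in Gata2cKO and 19.7 to 21.1 TPM in controls.

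Nerve markers ranged widely in level. Of 15 neuronal markers written, 11 were analysed here and 6 tested, of which Nefl and Nefm rose (33.3% called, beside 7.47% of all tested genes). Their limma adjusted p-values were 0.0141 and 0.0365. Nefl lies within the span of Nefm, on the other strand. Strandedness of the libraries is not given, so these calls may not be separate, and overlap of their exons was not checked. The list summed to 84.9 to 105 TPM in Gata2cKO and 67.2 to 79.3 TPM in controls, of which Prph, the most abundant, had 32.4 ± 11.2 and 25.1 ± 4.92 TPM. Uchl1 and Stmn2, both found broadly in neurons, were at 25.02 ± 0.348 and 15.35 ± 1.014 TPM in Gata2cKO and 24.9 ± 2.10 and 15.3 ± 2.32 TPM in controls (SD, n = 3 each), with overlap. The 5 markers not tested, Elavl4, Snap25, Syt1, Th and Gap43, were each under 1 TPM in every library. Of 8 tested Schwann cell and glial markers S100b and Fabp7 rose (limma adjusted p = 0.0173 and 0.0440) and Gfra3 was called lower (adjusted p = 0.00549). Gfra3 passed the filter on low values only through the controls, where it is higher, so its call is not independent of that filter. The glial list had sums of 29.8 to 37.7 TPM in Gata2cKO and 20.4 to 25.5 TPM in controls.

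Among the other lists, again beside 5.73% higher and 1.74% lower over all tested genes, mesothelial markers gave 4 of 7 that rose (sums 577 to 672 TPM in Gata2cKO and 357 to 460 TPM in controls) and duct epithelial markers 3 of 13 (1328 to 1341 and 1026 to 1114 TPM). Smooth muscle and pericyte markers gave 1 that rose and 3 that fell of 11 (904 to 963 and 1074 to 1169 TPM). Mesenchymal markers gave 1 that rose and 4 that fell of 12 (7185 to 9274 and 6540 to 8366 TPM), among them Tcf21 at 449.5 ± 15.2 TPM in Gata2cKO and 766 ± 63.2 TPM in controls (limma adjusted p = 0.00856). Most of the mesenchymal sum came from Col1a1, at 4458 ± 951 TPM in Gata2cKO and 4045 ± 659.5 TPM in controls, and Col3a1. Col3a1, the 1 that rose, was at 2107 ± 118 and 1606 ± 69.9 TPM (SD, n = 3 each). The sum therefore does not show the 4 that fell. Osr2, whose promoter drives the recombinase, fell to 127 ± 9.35 TPM in Gata2cKO, against 261 ± 54.1 TPM in controls (SD, n = 3 each; limma adjusted p = 0.0136). Mast cell markers gave 3 of 6 that rose (277 to 302 and 101 to 142 TPM), macrophage markers 1 of 8 (285 to 298 and 231 to 281 TPM) and erythroid markers 1 of 5 tested (9757 to 12740 and 6277 to 17210 TPM). The erythroid gene was Slc4a1, at 2.16, 2.34 and 2.05 TPM in Gata2cKO and 1.55, 0.687 and 0.887 TPM in controls, which passed the filter on low values through its Gata2cKO libraries, since only 1 control reached 1 TPM. With 1 called gene of 8, the macrophage list gives no result either way.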

How the data were processed

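The authors deposited 1 value per gene and library for 14366 genes. No header states the unit. The deposited values were taken as TPM because each library summed to between 997351 and 998844 and values were not whole. The authors' log2 fold change, p-value and adjusted p-value stand in the same deposited table. STAR 2.7.11a, DESeq2, DESeq and GRCm38 are named per the submitters' processing notes, without roles, and the sources used here do not give the quantifier or the gene filter. Positions are from GENCODE M21 (GRCm38), matched by gene identifier.

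Here, limma 3.58.1 (R 4.3.3) was fitted to log2(TPM + 1) with 1 group term and a mean-variance trend, over 12300 genes with 1 TPM or more in at least 3 libraries, with a Benjamini-Hochberg threshold of 0.05. The model was tested on simulated data. Depth is unknown, so no counting interval is given. The members and lists were chosen with earlier results of these data known. Members are named in full when called, most abundant or of smallest p in their family. Genes of the pathway lists are named when called, up to 6, or when most abundant. Endothelial and neuronal markers are named when called, up to 3, or when most abundant. Of the other marker lists only some such genes are named. Named beyond these rules, after their values were seen, are Neo1, Dcc, Robo4, Wt1, Pax2, Uchl1, Stmn2, Elavl4, Snap25, Syt1, Th and Gap43. The same holds for Kdr and the other endothelial markers that overlapped, and for further members. Alternatives changed the pseudocount, filter, scaling, variance model, replicate block and libraries used.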

Additional observations from a re-analysis of the deposited data

How the results depend on the processing

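The 10 called members kept their sign in all 15 alternatives. All 10 kept their calls in 7 of the 9 alternatives that kept every library: pseudocounts of 0.1 and 0.5, 1 TPM or more in all 6 libraries, 3 other scalings and no variance trend. Without a filter on low values 7 members were higher and 3 lower, since Sema3a and Robo2 passed and Sema6a and Sema4g did not. Deviations of same-numbered libraries from their group means correlated at r = 0.245, -0.0731 and 0.0384 for replicates 1, 2 and 3. The value of replicate 1 was the highest between the groups, while not every library correlated best with its own number. With 3 libraries per group these values cannot settle whether the numbers pair the samples, and the labels do not say. With the replicate block 6 members were higher and 2 lower, with Sema6a at adjusted p = 0.0736 and Sema4g at 0.0790. When 1 library was left out, 1 to 6 members were higher and 1 to 4 lower, most without control replicate 1. The cause was not tested. TPM keeps no depth, so precision at low levels rests on the 3 replicates of each group.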

Other observations

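Ligands of the GDNF family, which guide nerves and, in the kidney, the ureteric bud, were measured beside the guidance families. Artn was at 36.7, 40.7 and 31.4 TPM in Gata2cKO replicates 1 to 3 and 79.9, 68.4 and 59.8 TPM in control replicates 1 to 3, without overlap. Gfra3, the receptor of Artn, was at 0.376, 0.296 and 0.447 TPM in Gata2cKO and 1.57, 1.49 and 1.66 TPM in controls. The groups did not overlap. Gfra3 passed the filter on low values only through the controls, so its values are given as a description. Gdnf, at 1.36 ± 0.128 and 1.68 ± 0.529 TPM, and Nrtn, at 22.3 ± 2.18 and 21.3 ± 0.640 TPM in Gata2cKO and controls (SD, n = 3 each), overlapped between the groups. Ret, the signalling receptor of the family, was under 1 TPM in every library. Gfra3, Gdnf, Nrtn and Ret were singled out after their values were seen.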
